A study of Mus musculus with 12 samples.

Results

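The 42 genes described here encode the PI3K, AKT, mTOR and AMPK signalling proteins and the lysosomal machinery through which T cells read nutrients. They were chosen by symbol from the 17955 genes of the deposited expression table. All 42 were in the table and all 42 had enough counts to be tested, among 12903 genes tested in all. The RNA came from CD4+CD25+YFP+ regulatory T cells (Tregs), which were sorted from spleen and lymph node of C57BL/6 mice aged 7 weeks. WT mice (Foxp3YFP-cre TKT+/+) and cKO mice (Foxp3YFP-cre TKTfl/fl) both carried a Cre recombinase, with a yellow fluorescent protein, at Foxp3, so Cre acts in cells that express Foxp3. Tkt encodes transketolase, which moves carbon between sugar phosphates in the pentose phosphate pathway. Mice of each genotype received vehicle or DMαKG, a cell-permeable ester of the TCA cycle metabolite α-ketoglutarate, in drinking water. Dosing began while the mothers were pregnant and went on to adulthood. The 4 groups (WT vehicle, cKO vehicle, WT DMαKG and cKO DMαKG) held 3 libraries each. The sample titles do not state if a library came from a single mouse. The edgeR p-values below rest on the spread between libraries of the same group, pooled over the 4 groups.

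PI3K makes a membrane lipid that recruits PDK1 and AKT, and AKT relieves the TSC complex's brake on Rheb, the small GTPase that switches on the kinase complex mTORC1. Amino acids act through a parallel arm: the Rag GTPases, tethered to the lysosome by Ragulator, bring mTORC1 to Rheb, with GATOR1 as their inhibitor and the folliculin complex as the activator of RagC and RagD. AMPK, switched on by LKB1 when energy is short, opposes mTORC1 and activates ULK1, which starts autophagy. In Tregs, mTORC1 is known to support suppressive function while strong PI3K and AKT activity destabilises the lineage.

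Most of the 42 genes differed little between the groups, and 3 are named first for their size or the separation of their libraries. Rragd, encoding the GTPase RagD, rose in cKO against WT Tregs when both treatments were averaged (edgeR adjusted p = 0.0441). It was the 1 member of 42 past the threshold in any comparison, and 1.01% of all genes passed in that same comparison. Pik3r5, encoding the p101 regulatory subunit of PI3Kγ, was lower in all 6 cKO libraries than in any WT library without passing the threshold. Groups of 6 also did not overlap for 1.71% of all genes, so neither share was far from that over all genes. Fnip1, encoding a folliculin partner, was higher in 5 of the 6 DMαKG libraries than in any vehicle library, also without passing. The RefSeq promoter windows of these 3 genes, and of Rragc as the close relative of Rragd, are shown because the proteins of this arm control TFEB and TFE3, transcription factors that bind the E-box core CACGTG. Each window runs from 250 bases before to 50 bases after an annotated start site on the plus strand of GRCm38.p6, 5′ to 3′, with CACGTG in capitals. The positions are chr4:32982748-32983047 for Rragd, chr4:123917183-123917482 for Rragc, chr11:54437929-54438228 for Fnip1 and chr11:68431875-68432174 for Pik3r5.
Rragd: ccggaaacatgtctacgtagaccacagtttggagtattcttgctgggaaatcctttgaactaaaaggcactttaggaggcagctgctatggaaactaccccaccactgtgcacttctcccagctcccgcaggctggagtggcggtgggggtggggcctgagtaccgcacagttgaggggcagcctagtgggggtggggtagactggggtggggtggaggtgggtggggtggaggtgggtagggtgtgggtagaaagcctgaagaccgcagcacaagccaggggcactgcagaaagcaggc
Rragc: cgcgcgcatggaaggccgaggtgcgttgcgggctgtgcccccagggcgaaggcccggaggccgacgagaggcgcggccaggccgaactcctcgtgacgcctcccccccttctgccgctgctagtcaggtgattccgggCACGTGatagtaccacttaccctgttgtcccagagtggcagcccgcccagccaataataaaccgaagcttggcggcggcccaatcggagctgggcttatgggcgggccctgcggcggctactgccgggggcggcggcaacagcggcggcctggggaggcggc
Fnip1: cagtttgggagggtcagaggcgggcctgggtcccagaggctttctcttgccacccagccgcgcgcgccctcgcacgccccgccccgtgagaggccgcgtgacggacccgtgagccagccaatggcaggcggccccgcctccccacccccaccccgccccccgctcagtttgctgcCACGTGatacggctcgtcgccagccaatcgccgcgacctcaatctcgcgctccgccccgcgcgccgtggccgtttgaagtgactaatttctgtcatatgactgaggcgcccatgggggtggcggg
Pik3r5: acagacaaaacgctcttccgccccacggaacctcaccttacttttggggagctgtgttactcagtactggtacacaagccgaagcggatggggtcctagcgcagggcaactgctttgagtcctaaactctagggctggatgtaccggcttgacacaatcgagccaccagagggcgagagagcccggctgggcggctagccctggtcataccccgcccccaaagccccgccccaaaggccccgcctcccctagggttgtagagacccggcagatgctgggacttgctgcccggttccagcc

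The palindrome CACGTG began 112 bases before the start site of Rragc and 75 bases before that of Fnip1. The Fnip1 start site used here is an annotated one downstream of the gene's first base, chr11:54438107, which lies inside the window. CACGTG lies just before that first base. These letters were not in the windows of Rragd and Pik3r5. Windows were found for 40 of the 42 members, and 6 of them (15%) held CACGTG: Fnip1, Lamtor1, Lamtor4, Rheb, Rragc and Sgk1. The share over all 27025 genes with a window of the same length was 8.09%. The FOXO core GTAAACA, searched on both strands, was in the windows of 2 members, Akt1 and Stk11 (5.0%), against 4.05% of all genes. The matches describe letters only, since no binding was measured. In the annotation 11 of the 42 members overlap another gene of the table, and the sources used here do not say if counting was stranded. Their counts are uncertain where reads were shared.

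Summed estimated counts ran from 15706791 to 18878525 per library. Tkt, the targeted gene, was at 102 to 194 CPM (counts relative to the TMM-scaled library size) in the 6 WT libraries and at 26.2 to 41.8 CPM in the 6 cKO libraries. Treg markers were present in every library, with a summed level of 7 markers of 2730 to 5218 TPM (transcript abundance scaled by length). The cKO DMαKG libraries had the highest sums, 4564 to 5218 TPM, through Ctla4, which was at 2186 to 2885 TPM there and at 556 to 1101 TPM in the cKO vehicle libraries. In WT, Ctla4 was at 732 to 1058 TPM with vehicle and at 1905, 1982 and 640 TPM in DMαKG replicates 1, 2 and 3. The other 6 Treg markers summed to 1882 to 2513 TPM in cKO DMαKG and to 2175 to 2476 TPM in cKO vehicle, and Foxp3, Il2ra, Cd4 and Cd3e had their lowest TPM of the 12 libraries in cKO DMαKG replicate 3. Dendritic cell markers summed to 146 to 187 TPM in the WT vehicle libraries and to 107 to 139.5 TPM in the other 9. B cell markers summed to 41.4 to 61.3 TPM in cKO DMαKG and to 26.1 to 42.5 TPM elsewhere. Summed macrophage and monocyte markers were at 81.8 to 252 TPM, and no listed marker was at 0 in all libraries of a group. On the first principal component, which held 29.0% of the variance, replicate 4 of both vehicle groups and WT DMαKG replicate 3 formed one end, and cKO DMαKG replicate 3 was the farthest library at the opposite end. Y-linked Ddx3y was near 0 in WT vehicle replicate 3 and in cKO DMαKG replicates 1 and 3, at 22.6 CPM in WT DMαKG replicate 2 and at 109 to 241 CPM in the rest. In bulk RNA from sorted cells, fewer cells of a type and less RNA per cell cannot be told apart.

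The 42 genes were all expressed. The smallest estimated count of any member in any library was 67, 39 of 42 had a mean over the 12 libraries above 10 TPM, and 8 were above 100 TPM. The median of their means was 44.2 TPM. Pik3cd, encoding the p110δ catalytic subunit that dominates in lymphocytes, was the highest at 267 TPM, followed by Inpp4b at 230 TPM, a phosphatase that removes a PI3K product. Eif4ebp2, a translation repressor that mTORC1 phosphorylates, averaged 166 TPM. Fnip2 was the lowest at 1.91 TPM, below Pik3cb at 5.68 TPM and Prkab2 at 7.00 TPM.

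**Figure D1:**
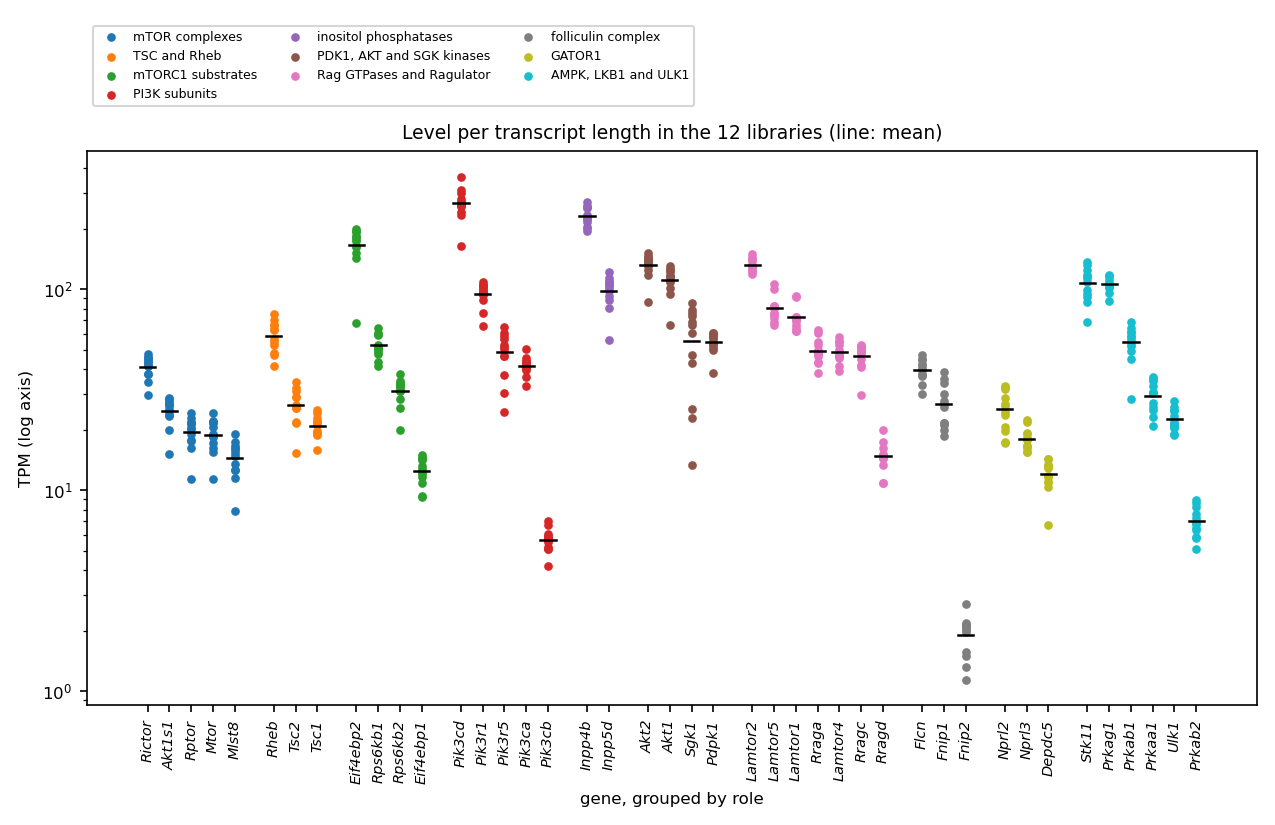
Level of each of the 42 genes in TPM (log axis) in the 12 libraries, grouped by role; each point is 1 library and each line is the mean over the 12. Pik3cd and Inpp4b have the highest means, at 267 and 230 TPM, and Fnip2 the lowest, at 1.91 TPM.

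By role, the highest and lowest mean levels were Rictor (41.1 TPM) and Mlst8 (14.4 TPM) for the mTOR complexes, and Rheb (58.6 TPM) and Tsc1 (20.9 TPM) for the next step. Lamtor2 (132 TPM) and Rragd (14.7 TPM) bounded the Rag and Ragulator genes, Nprl2 (25.2 TPM) and Depdc5 (12 TPM) those of GATOR1, and Stk11 (107 TPM) and Prkab2 (7.00 TPM) the AMPK arm. Paralogs differed in TPM, and the order of each pair named here held in 12 of 12 libraries unless stated. Pik3cd exceeded Pik3ca by a median ratio of 6.30, and Pik3ca exceeded Pik3cb by 7.46. Akt2 exceeded Akt1 by 1.24, a narrow margin that was still present in all 12 libraries. Eif4ebp2 exceeded Eif4ebp1 by 13.4, and the S6 kinase Rps6kb1 exceeded Rps6kb2 by 1.80. Among AMPK subunits, Prkab1 exceeded Prkab2 by 7.48, and the second catalytic subunit, Prkaa2, was nearly absent at a mean of 0.0142 TPM. Fnip1 exceeded Fnip2 by 14.2. Rictor, the defining subunit of mTORC2, exceeded Rptor, that of mTORC1, by 2.08. Rragc exceeded Rragd by a median of 3.28, with single libraries from 1.98 to 4.79. Rptor exceeded Mtor in 6 of 12 libraries and Tsc2 exceeded Tsc1 in 11 of 12, so the levels of Rptor and Mtor were not ordered.

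Variation between libraries was small for most members. In CPM, the highest library was less than 2 times the lowest for 37 of 42 members and less than 1.5 times for 17. The exceptions were Sgk1, with a ratio of 6.38, Eif4ebp2 with 2.5, Fnip2 with 2.47, Fnip1 with 2.21 and Pik3r5 with 2.14. A single library, cKO DMαKG replicate 3, held the lowest CPM value for 20 of 42 members. In TPM it did so for 26 of 42. It is also the library farthest out on the first principal component, and results on the cKO DMαKG group are therefore given without it where that moves a named value by over 1.5 times.

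In cKO against WT Tregs with vehicle, 0 of 42 members passed an adjusted p of 0.05 (edgeR quasi-likelihood test, Benjamini-Hochberg over 12903 genes), where 0.062% of all genes did so. Members with an unadjusted p under 0.05 numbered 2, against 7.29% of all genes. Groups did not overlap for 2 members that were higher in cKO (Akt2 and Rragd) and 3 that were lower (Pik3ca, Pik3r5 and Pdpk1), against 15.3% of all genes. The members' median log2 fold change was 0.03, against 0.01 over all genes. The median standard error of a member's log2 fold change was 0.15.

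With DMαKG, 0 of 42 members passed in cKO against WT, where 0.186% of all genes passed, and 3 had an unadjusted p under 0.05 against 10.4% of all genes. The 3 were Pik3r5, Prkaa1 and Prkab1, all lower in cKO. Groups did not overlap for 5 members, against 15% of all genes. When both treatments were averaged, 1 of 42 members, Rragd, passed the threshold, against 1.01% of all genes, and 3 had an unadjusted p under 0.05 against 12.8%. The share called among members was therefore not far from that over all genes. Groups of 6 did not overlap for 1 member, Pik3r5, against 1.71% of all genes.

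DMαKG against vehicle gave 0 of 42 members past the threshold in WT, where 0% of all genes passed, and 0 of 42 in cKO, where 0% did so. Members with an unadjusted p under 0.05 numbered 2 in WT, against 2.73% of all genes, and 4 in cKO, against 17.3%. The comparisons with vehicle in cKO had the widest member shift of the 4 pairwise comparisons: 28 of 42 members were lower, with a median log2 fold change of -0.12 against 0.00 over all genes. Without cKO DMαKG replicate 3 that median was -0.04. Groups did not overlap for 5 members lower and 2 higher in cKO, against 21.1% of all genes, and for 2 lower and 3 higher in WT, against 8.45%. Averaged over genotype, 0 members passed, where 0.00775% of all genes passed, 6 had an unadjusted p under 0.05 against 15.9%, and 0 had groups of 6 without overlap against 0.488%. The interaction gave 0 members, 0% of all genes called and 0 members at an unadjusted p under 0.05, against 3.64% of all genes. The comparisons share groups: each vehicle or DMαKG group enters a genotype and a treatment comparison.

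**Figure D2:**
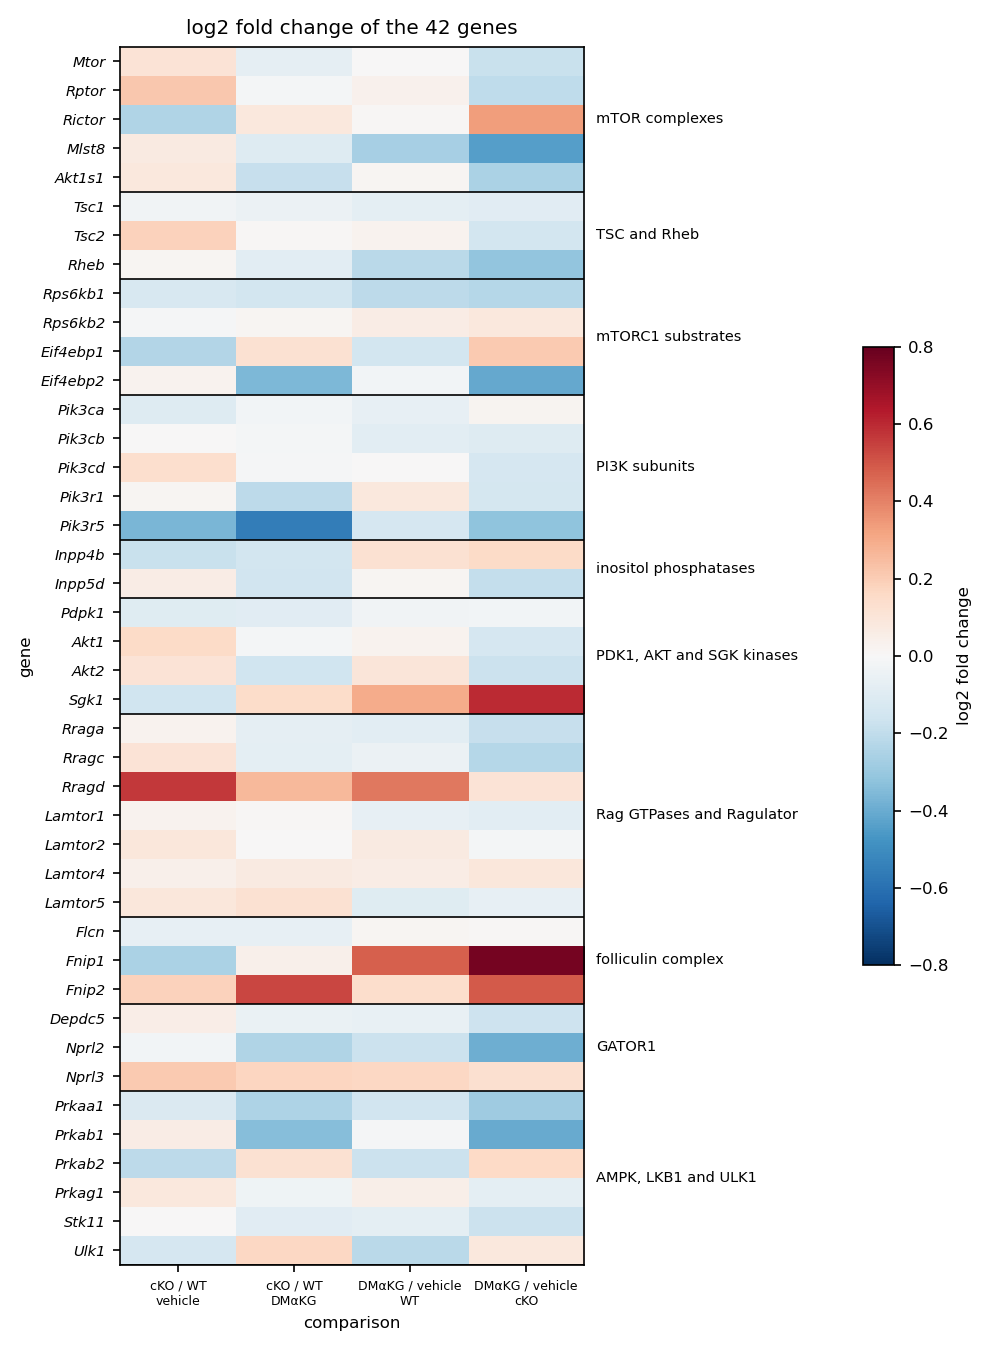
Colour map of the log2 fold change of each of the 42 genes (rows, grouped by role) in the 4 pairwise comparisons (columns), on a scale from -0.8 to 0.8. Rragd is positive in all 4 columns, Pik3r5 is negative in all 4, and Fnip1 is positive in both columns of DMαKG against vehicle; 0 members passed the threshold in any of the 4.

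Rragd (gene 52187, GRCm38 chr4:32982998-33022180) encodes RagD, which pairs with RagA or RagB on the lysosome. It was at 24.1, 27.8 and 22.7 CPM in the WT vehicle libraries and 42.5, 34 and 33.8 CPM in the cKO vehicle libraries. With DMαKG it was at 34.6, 33.7 and 31.5 CPM in the 3 WT libraries and 38.3, 39.5 and 41.3 CPM in the 3 cKO libraries. The WT vehicle libraries were the 3 lowest of the 12, and the cKO libraries lay above the WT libraries within each treatment without overlap. The WT vehicle libraries also had the highest dendritic cell marker sums, 146 to 187 TPM, and the part of this in the Rragd values was not tested. Averaged over treatment, Rragd rose in cKO by 0.41 on the log2 scale (SE 0.09, edgeR adjusted p = 0.0441, unadjusted 0.000407), higher than the WT mean of the same treatment in 6 of 6 cKO libraries. The log2 fold change was 0.57 with vehicle (SE 0.12, edgeR adjusted p = 0.153) and 0.26 with DMαKG (SE 0.12, edgeR adjusted p = 0.494).

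DMαKG against vehicle gave a log2 difference for Rragd of 0.42 in WT (SE 0.12, edgeR adjusted p = 0.999, unadjusted 0.00481), with no overlap between the groups, and of 0.11 in cKO (edgeR adjusted p = 0.632). The interaction was -0.31 (SE 0.17, edgeR adjusted p = 0.955), so the treatment difference was not shown to depend on genotype. The averaged genotype call was lost without any 1 library other than cKO vehicle replicate 4, with adjusted p-values up to 0.132. It was also lost with no low-count filter (0.0516), with a Y-linked covariate (0.0574) and without the 3 libraries at the end of the first component (0.153), while the log2 fold change stayed between 0.35 and 0.46 in all 20 alternatives.

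The other Rag and Ragulator genes had smaller differences than Rragd. Rragc, its relative, was at 54.8, 53.9 and 56.1 CPM in the WT vehicle libraries and 53.4, 62.4 and 61.6 CPM in the cKO vehicle libraries, and its groups overlapped in every pairwise comparison. All 7 genes of this role (Rraga, Rragc, Rragd, Lamtor1, Lamtor2, Lamtor4 and Lamtor5) had positive log2 fold changes in cKO against WT with vehicle, with a median of 0.09, where 51.6% of all genes were positive, but Rragd alone had an unadjusted p under 0.05. With DMαKG 5 of the 7 were positive, with a median of 0.01. Rraga was at 33.5, 34.3 and 44.1 CPM with vehicle and 32.3, 33.1 and 33.2 CPM with DMαKG in cKO, a separation without overlap of -0.18 on the log2 scale (edgeR adjusted p = 0.462). Lamtor2, the Ragulator scaffold gene with the highest TPM of the role, at a mean of 132 TPM, ranged only from 28.3 to 34.6 CPM over the 12 libraries.

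**Figure D3:**
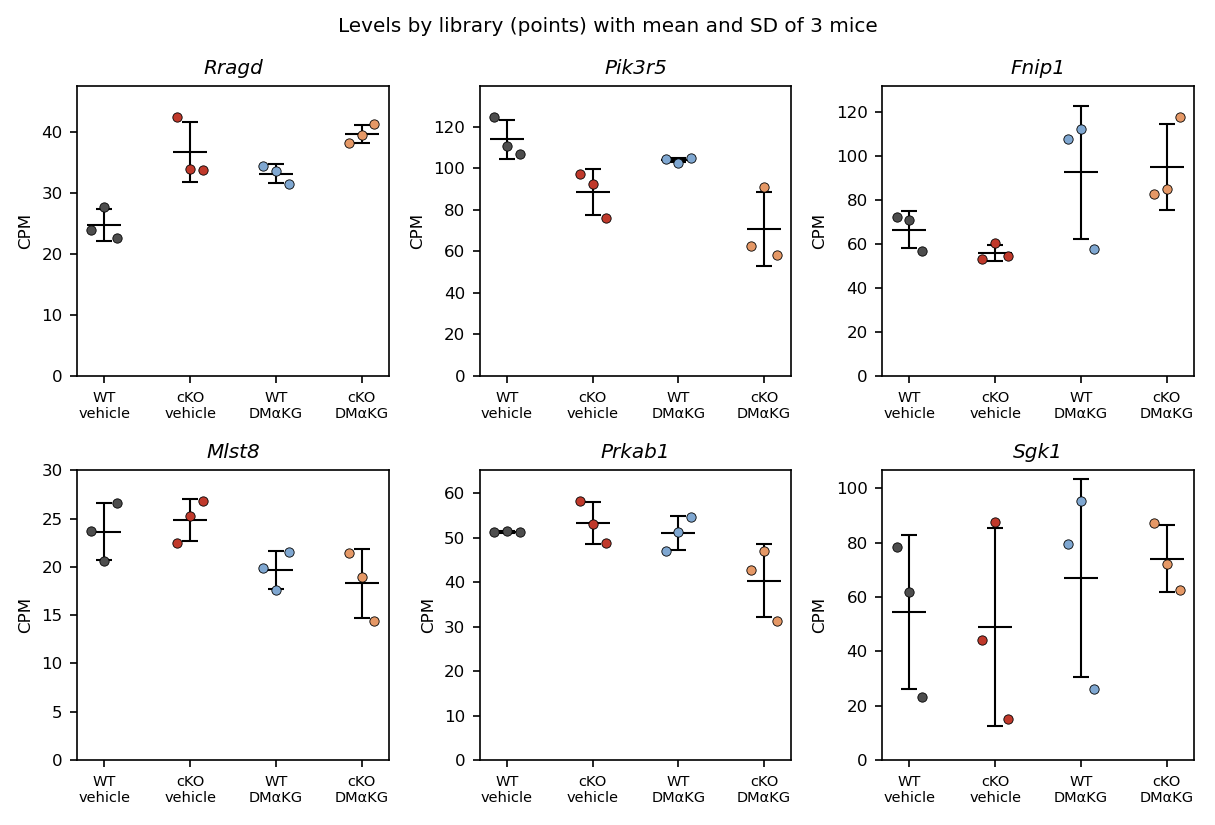
CPM of Rragd, Pik3r5, Fnip1, Mlst8, Prkab1 and Sgk1 in each library (points), with the mean and SD of 3 libraries per group (lines and bars). The word mice in the figure's title stands for libraries, since the sample titles do not state if each came from a single mouse. Rragd is lowest in the 3 WT vehicle libraries, Pik3r5 is lower in the 6 cKO than in the 6 WT libraries, and Sgk1 has 1 low library in each group but the cKO DMαKG group.

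In the folliculin complex, Flcn itself stayed between 47.6 and 62.2 CPM, whereas its partner Fnip1 (gene 216742, GRCm38 chr11:54438107-54518241) had a wider range, 53.1 to 118 CPM. Fnip1, which bridges folliculin and AMPK, was at 72, 70.7 and 56.7 CPM in the WT vehicle libraries and 53.1, 60.2 and 54.3 CPM in the cKO vehicle libraries. In the DMαKG groups the values were 108, 112 and 57.6 CPM in the 3 WT libraries and 82.8, 84.7 and 118 CPM in the 3 cKO libraries. In cKO the DMαKG libraries lay above the vehicle libraries without overlap, and in WT replicate 3 stayed at the vehicle level. The log2 difference was 0.77 in cKO (SE 0.22, edgeR adjusted p = 0.156, unadjusted 0.00425) and 0.48 in WT (SE 0.22, edgeR adjusted p = 0.999, unadjusted 0.05).

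Averaged over genotype, the Fnip1 difference was 0.62 (SE 0.16, edgeR adjusted p = 0.144). With all 12 libraries it passed the threshold under the DESeq2 Wald test (adjusted p = 0.0156) and under voom. In edgeR it passed when WT DMαKG replicate 3 was left out, at 0.75 (adjusted p = 0.00969). Without the 3 libraries at the end of the first component it passed in edgeR at 0.69 (adjusted p = 0.041). Over all alternatives the adjusted p ran from 0.00969 to 0.675. WT DMαKG replicate 3 was 1 of those 3 libraries and had the lowest summed immediate-early genes of the DMαKG libraries, 3655 TPM against 4840 to 9244 TPM in the other 5. The part of that difference in the Fnip1 values was not tested. In cKO against WT the value was -0.10 averaged over treatment (SE 0.16, edgeR adjusted p = 0.839).

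Fnip2, the second folliculin partner and the least abundant member, was at 4.97, 6.05 and 4.56 CPM in the WT vehicle libraries and 6.39, 6.92 and 4.38 CPM in the cKO vehicle libraries. Under DMαKG the level was 6.8, 6.8 and 3.57 CPM in the 3 WT libraries and 7.38, 8.83 and 8.65 CPM in the 3 cKO libraries. The 3 cKO DMαKG libraries held the 3 highest values of the 12. The log2 fold change in cKO against WT was 0.54 with DMαKG (SE 0.26, edgeR adjusted p = 0.496) and 0.36 averaged over treatment (SE 0.18, edgeR adjusted p = 0.448), so neither passed. In DMαKG against vehicle it was 0.49 in cKO (SE 0.26, edgeR adjusted p = 0.339) and 0.31 averaged over genotype (SE 0.18). Without WT DMαKG replicate 3, its lowest library, the genotype values were 0.28 and 0.23, and without cKO vehicle replicate 4 the DMαKG difference in cKO was 0.32.

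GATOR1 restrains the Rag GTPases when amino acids are scarce, and 0 of its 3 genes passed in any comparison. Nprl3 was at 20.4, 21.2 and 19.6 CPM in the WT vehicle libraries and 26.9, 23.5 and 20.3 CPM in the cKO vehicle libraries. The DMαKG values were 24.4, 24.9 and 19.4 CPM in the 3 WT libraries and 25.6, 27.9 and 23.8 CPM in the 3 cKO libraries. The cKO mean was above the WT mean in both treatments, by 0.21 on the log2 scale with vehicle (SE 0.14) and 0.19 averaged (SE 0.10, edgeR adjusted p = 0.466), with overlapping libraries, and the DMαKG difference in WT was 0.17 (SE 0.14). In cKO against WT with vehicle the Nprl2 value was only -0.02. Its wider difference was DMαKG against vehicle in cKO, at 17.6, 15.5 and 16.7 CPM with vehicle and 15.9, 10.5 and 11.6 CPM with DMαKG (-0.39, SE 0.19, edgeR adjusted p = 0.307). Nprl3 was at 0.13 in that comparison. Depdc5, the remaining GATOR1 gene, ranged from 32.6 to 39.7 CPM in 11 libraries and was at 26.3 CPM in cKO DMαKG replicate 3. Nprl3 overlaps Mpg and Nprl2 overlaps Cyb561d2 in the annotation, and both counts are uncertain for that reason.

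Among the mTOR complex genes, Mlst8, a subunit of both complexes, was at 23.7, 20.7 and 26.6 CPM in the WT vehicle libraries and 22.5, 25.3 and 26.8 CPM in the cKO vehicle libraries. With DMαKG the libraries gave 19.9, 17.6 and 21.6 CPM in the 3 WT libraries and 21.4, 19 and 14.4 CPM in the 3 cKO libraries. In cKO the DMαKG libraries lay below the vehicle libraries without overlap, and in WT the groups overlapped. The log2 difference was -0.44 in cKO (SE 0.16, edgeR adjusted p = 0.212), -0.27 in WT (SE 0.16) and -0.35 averaged over genotype (SE 0.11, edgeR adjusted p = 0.188). Without cKO DMαKG replicate 3 the difference in cKO was -0.29. Mlst8 overlaps Bricd5, and its reads could in part be those of that gene.

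Rictor, the mTORC2 scaffold gene, was at 187, 181 and 161 CPM in the WT vehicle libraries and 165, 156 and 129 CPM in the cKO vehicle libraries, and with DMαKG at 191, 206 and 137 CPM in the 3 WT libraries and 163, 183 and 219 CPM in the 3 cKO libraries. Its log2 fold change was -0.24 in cKO against WT with vehicle (SE 0.16, edgeR adjusted p = 0.86) and 0.33 in DMαKG against vehicle in cKO (SE 0.16, edgeR adjusted p = 0.312). The first was -0.14 without cKO vehicle replicate 4 and the second 0.21 without cKO DMαKG replicate 3. Rptor, the mTORC1 scaffold gene, had the opposite sign with vehicle: it was at 50.5, 54.6 and 58.9 CPM in the WT vehicle libraries and 59.8, 72.5 and 58.3 CPM in the cKO vehicle libraries (0.22, SE 0.17, edgeR adjusted p = 0.896), or 0.10 without cKO vehicle replicate 3. With DMαKG, Rptor was at 51.1, 52.8 and 63.7 CPM in the 3 WT libraries and 66.8, 58.5 and 40.4 CPM in the 3 cKO libraries. Libraries overlapped in every pairwise comparison of both genes. Mtor itself ranged from 52.5 to 85.2 CPM, with both ends in cKO libraries, and Akt1s1, encoding the mTORC1 inhibitor PRAS40, from 17.3 to 26.3 CPM.

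The TSC and Rheb genes sit between AKT and mTORC1. Rheb was at 43.3, 41.2 and 43.7 CPM in the WT vehicle libraries and 39.8, 38.4 and 51.6 CPM in the cKO vehicle libraries, and with DMαKG at 39, 32.1 and 39.4 CPM in the 3 WT libraries and 37, 27.6 and 39.4 CPM in the 3 cKO libraries. In WT the DMαKG libraries lay below the vehicle libraries without overlap, and the averaged difference was -0.27 (SE 0.11, edgeR adjusted p = 0.275, unadjusted 0.0309). Tsc1, the stabilising subunit of the TSC complex, was among the steadiest members, at 66.5 to 80.5 CPM over the 12 libraries. Tsc2, the subunit with GAP activity on Rheb, ranged from 46.9 CPM in cKO DMαKG replicate 3 to 82.8 CPM in cKO vehicle replicate 2, and its counts are uncertain because it overlaps Pkd1.

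Of the mTORC1 substrates, Rps6kb1, encoding S6 kinase 1, was at 77.2, 73.7 and 83.1 CPM in the WT vehicle libraries and 65.3, 70.3 and 78.4 CPM in the cKO vehicle libraries. With DMαKG it was at 65.8, 57.5 and 79.1 CPM in the 3 WT libraries and 62.2, 60.2 and 60.6 CPM in the 3 cKO libraries. Its 3 cKO DMαKG libraries lay close together and below all 3 cKO vehicle libraries. The DMαKG difference was -0.22 averaged over genotype (SE 0.09, edgeR adjusted p = 0.266, unadjusted 0.027) and -0.21 in WT (SE 0.12). Rps6kb1 overlaps Rnft1. Eif4ebp2 was at 312, 355 and 351 CPM in WT and 278, 362 and 153 CPM in cKO with DMαKG, and the low value of cKO DMαKG replicate 3 gave that group an SD of 105 around a mean of 264. Eif4ebp1, the less abundant repressor, was at 5.87, 5.22 and 5.93 CPM in the WT vehicle libraries and 5.8, 3.95 and 4.74 CPM in the cKO vehicle libraries, and with DMαKG at 5.51, 5.05 and 4.8 CPM in the 3 WT libraries and 6.48, 5.42 and 4.83 CPM in the 3 cKO libraries. Its interaction was 0.36 (SE 0.27, edgeR adjusted p = 0.955).

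Among the PI3K subunit genes, Pik3r5 (gene 320207, GRCm38 chr11:68432125-68497849) was at 125, 111 and 107 CPM in the WT vehicle libraries and 97.4, 92.4 and 76 CPM in the cKO vehicle libraries. In the DMαKG groups the values were 104, 103 and 105 CPM in the 3 WT libraries and 62.8, 91.1 and 58.4 CPM in the 3 cKO libraries. The lowest of the 6 WT libraries, at 103 CPM, lay above the highest of the 6 cKO libraries, at 97.4 CPM. The log2 fold change in cKO against WT was -0.36 with vehicle (SE 0.16, edgeR adjusted p = 0.642), -0.56 with DMαKG (SE 0.16, edgeR adjusted p = 0.25) and -0.46 averaged (SE 0.11, edgeR adjusted p = 0.0762, unadjusted 0.00119). Over the alternatives the averaged value ran from -0.56 to -0.40, with adjusted p-values from 0.00527 to 0.213. It passed with DESeq2 (0.00861), with voom (0.00527) and without cKO DMαKG replicate 2 (0.0153). Pik3r6, encoding the alternative regulatory subunit of PI3Kγ, was nearly absent, at a mean of 0.0683 TPM.

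The other PI3K subunit genes differed less between groups. Pik3cd was at 561, 597 and 518 CPM in the WT vehicle libraries and 731, 587 and 519 CPM in the cKO vehicle libraries, with overlapping groups, and Pik3r1, encoding the p85α subunit that stabilises the catalytic subunits, at 345, 343 and 259 CPM in WT and 251, 319 and 248 CPM in cKO with DMαKG. Pik3ca, encoding p110α, was at 139, 153 and 137 CPM in the WT vehicle libraries and 133, 131 and 135 CPM in the cKO vehicle libraries, which did not overlap but differed by only -0.11 on the log2 scale (edgeR adjusted p = 0.921). Of the 2 inositol phosphatase genes, Inpp4b was at 800.1, 834 and 835 CPM in the WT vehicle libraries and 642, 725 and 815 CPM in the cKO vehicle libraries, and with DMαKG at 957, 821 and 913 CPM in the 3 WT libraries and 818, 701 and 911 CPM in the 3 cKO libraries. Its averaged log2 fold change in cKO was -0.16 (SE 0.09, edgeR adjusted p = 0.519) and that with vehicle -0.18 (SE 0.13), with overlap in both treatments. Inpp5d, encoding SHIP1, ranged from 150.3 CPM in cKO DMαKG replicate 3 to 251 CPM in cKO vehicle replicate 2.

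Downstream of PI3K, Akt2 was at 175, 178 and 177 CPM in the WT vehicle libraries and 197, 188 and 186 CPM in the cKO vehicle libraries. Under DMαKG the level was 179.7, 202 and 184 CPM in the 3 WT libraries and 168, 194 and 145 CPM in the 3 cKO libraries. With vehicle all 3 cKO libraries lay above all 3 WT libraries, and with DMαKG the groups overlapped, giving an interaction of -0.27 (SE 0.16, edgeR adjusted p = 0.955), or -0.16 without cKO DMαKG replicate 3. Pdpk1, encoding PDK1, was at 188, 177 and 176 CPM in the WT vehicle libraries and 169, 172 and 163 CPM in the cKO vehicle libraries, lower in cKO without overlap and with a log2 fold change of -0.10 (edgeR adjusted p = 0.939). Akt1 ranged from 96.9 CPM in cKO DMαKG replicate 3 to 156 CPM in cKO vehicle replicate 4.

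Sgk1, an AGC kinase gene induced by salt, glucocorticoids and PI3K signalling, was the most variable member. It was at 78.5, 61.9 and 23.1 CPM in the WT vehicle libraries and 44.3, 87.5 and 15 CPM in the cKO vehicle libraries. The DMαKG values were 79.7, 95.4 and 26 CPM in the 3 WT libraries and 87.2, 72.4 and 62.7 CPM in the 3 cKO libraries. The 3 low values, 23.1, 15 and 26 CPM, came from replicate 4 of both vehicle groups and WT DMαKG replicate 3. These were the same 3 as at the end of the first component, and they also had the lowest summed levels of 10 immediate-early genes, 1695, 1582 and 3655 TPM, against 4840 to 9985 TPM in the other 9. The part of that difference in the Sgk1 values was not tested. The standard error of its log2 fold change was 0.66 in the vehicle comparison, and no comparison had an unadjusted edgeR p under 0.05.

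For AMPK, the catalytic subunit gene Prkaa1 was at 71.4, 71.5 and 64.7 CPM in the WT vehicle libraries and 60, 65.4 and 65.9 CPM in the cKO vehicle libraries. With DMαKG the libraries gave 60.3, 55.2 and 70.8 CPM in the 3 WT libraries and 55, 48.4 and 53.4 CPM in the 3 cKO libraries. The 3 cKO DMαKG libraries were the 3 lowest of the 12. The log2 difference was -0.29 in DMαKG against vehicle in cKO (SE 0.11, edgeR adjusted p = 0.237) and -0.25 in cKO against WT with DMαKG (SE 0.11, edgeR adjusted p = 0.473). The averaged values were -0.18 for genotype (SE 0.08, edgeR adjusted p = 0.361) and -0.22 for treatment (SE 0.08, edgeR adjusted p = 0.231).

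Prkab1, encoding the scaffold subunit β1, was at 51.2, 51.6 and 51.2 CPM in the WT vehicle libraries and 58.2, 53.2 and 48.7 CPM in the cKO vehicle libraries. With DMαKG it was at 47.1, 51.4 and 54.7 CPM in the 3 WT libraries and 42.7, 47 and 31.3 CPM in the 3 cKO libraries. The WT vehicle values were almost equal, and the cKO DMαKG libraries held the 3 lowest values of the 12, the highest of them just under WT DMαKG replicate 1. The log2 difference was -0.40 in DMαKG against vehicle in cKO (SE 0.14, edgeR adjusted p = 0.205), -0.34 in cKO against WT with DMαKG (SE 0.14, edgeR adjusted p = 0.418) and -0.40 for the interaction (SE 0.20, edgeR adjusted p = 0.955). Without cKO DMαKG replicate 3 these were -0.25, -0.18 and -0.23.

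Prkag1, the regulatory subunit gene that senses AMP, was steady at 71.0 to 86.3 CPM, and Stk11, encoding LKB1, ranged from 85.9 CPM in cKO DMαKG replicate 3 to 135 CPM in cKO vehicle replicate 2. Ulk1 was at 56.5, 50.6 and 59.4 CPM in the WT vehicle libraries and 53.8, 49.3 and 48.4 CPM in the cKO vehicle libraries, and with DMαKG at 45.6, 51.2 and 46.8 CPM in the 3 WT libraries and 49.1, 59.3 and 52.3 CPM in the 3 cKO libraries. Its log2 difference was -0.21 in DMαKG against vehicle in WT (SE 0.11), 0.16 in cKO against WT with DMαKG (SE 0.11) and 0.30 for the interaction (SE 0.16, edgeR adjusted p = 0.955). Beside the AMPK genes, Ctla4 was higher in every cKO DMαKG library than in any cKO vehicle library, while the sums of the other 6 Treg markers overlapped. Ctla4 in WT DMαKG replicates 1 and 2 was also above every vehicle library. The part of these marker levels in the AMPK values was not tested.

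The members were set beside 74 further genes of the same pathways, of which 70 had enough counts to be tested and 0 passed the threshold in any of the 7 comparisons. With vehicle, 4 of the 70 were higher in cKO at an unadjusted p under 0.05 and 0 were lower, a share of 5.71% against 7.29% of all genes. Averaged over treatment, 9 were higher and 4 lower, a share of 18.6% against 12.8% of all genes. Of these 13, 8 were among the 18 amino acid sensing genes, 7 higher in cKO and Sesn1 lower. Those 8 included the sestrin genes Sesn1, Sesn2 and Sesn3, the arginine sensor gene Castor1, and the amino acid transporter genes Slc7a5 and Slc3a2. The others were Wdr59 and Wdr24, subunits of GATOR2, the complex that releases the Rag GTPases from GATOR1. Wdr59 was at 37.4, 33.9 and 39.2 CPM in the WT vehicle libraries and 45.5, 50.8 and 48.8 CPM in the cKO vehicle libraries, with no overlap (0.39, SE 0.12, edgeR adjusted p = 0.375). In the DMαKG groups the values were 39.2, 32.8 and 41.8 CPM in the 3 WT libraries and 41, 44.4 and 39.6 CPM in the 3 cKO libraries. Wdr24 was at 30.4, 29.5 and 28.3 CPM in the WT vehicle libraries and 39.8, 38.5 and 32.1 CPM in the cKO vehicle libraries (0.32, SE 0.12, edgeR adjusted p = 0.528). Another GATOR2 gene, Mios, was at 33.3, 31.6 and 33.5 CPM with vehicle and 43.8, 35.4 and 37.9 CPM with DMαKG in WT (0.25, SE 0.12, edgeR adjusted p = 0.999).

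Pik3cg, the catalytic partner of the Pik3r5 product, was at 98.2, 103 and 115 CPM in the WT vehicle libraries and 104, 99.4 and 108 CPM in the cKO vehicle libraries. Under DMαKG the level was 108, 108 and 107 CPM in the 3 WT libraries and 87.8, 76.5 and 81.3 CPM in the 3 cKO libraries. The cKO DMαKG libraries were the 3 lowest of the 12, without overlap with any other group. The log2 fold change in cKO against WT with DMαKG was -0.40 (SE 0.10, edgeR adjusted p = 0.165), with an interaction of -0.37 (SE 0.14, edgeR adjusted p = 0.955, unadjusted 0.0178). Pik3r3, another regulatory subunit gene, was at 13.4, 13.8 and 14.1 CPM in WT and 22, 19.6 and 16.4 CPM in cKO with DMαKG (0.49, SE 0.16, edgeR adjusted p = 0.306). Averaged over treatment Pik3r3 differed by 0.36 (SE 0.11, edgeR adjusted p = 0.163).

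Ddit4, Ccr7 and Irs2 had wide treatment differences among the further genes. Ddit4, encoding REDD1, which restrains mTORC1 under stress, was at 86, 59.5 and 128 CPM in the WT vehicle libraries and 88, 111 and 143 CPM in the cKO vehicle libraries. The DMαKG values were 56.2, 53.6 and 109 CPM in the 3 WT libraries and 30.4, 46.5 and 18.3 CPM in the 3 cKO libraries. In cKO the DMαKG libraries were below the vehicle libraries without overlap, at -1.84 on the log2 scale (SE 0.41, edgeR adjusted p = 0.132), and averaged over genotype the value was -1.08 (SE 0.28, edgeR adjusted p = 0.156). Its interaction was -1.52 (SE 0.56, edgeR adjusted p = 0.955, unadjusted 0.0204).

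Ccr7, a lymph node homing receptor gene that FOXO1 is known to sustain and PI3K signalling to lower, was at 265, 196 and 166 CPM in the WT vehicle libraries and 195, 353 and 196 CPM in the cKO vehicle libraries. With DMαKG the libraries gave 574, 706 and 157 CPM in the 3 WT libraries and 788, 872 and 1148 CPM in the 3 cKO libraries. WT DMαKG replicate 3 was the lowest of the 12 libraries, and the other 5 DMαKG libraries lay above all 6 vehicle libraries. The log2 difference was 1.92 in cKO (SE 0.47, edgeR adjusted p = 0.145), 1.2 in WT (SE 0.46, edgeR adjusted p = 0.999) and 1.56 averaged over genotype (SE 0.33, edgeR adjusted p = 0.144). Fnip1 had the same library, WT DMαKG replicate 3, at its vehicle level. Irs2, which encodes an adaptor of the insulin receptor and was chosen after its values were seen, was at 54.3, 39.8 and 18.8 CPM in the WT vehicle libraries and 42.4, 62.4 and 21.1 CPM in the cKO vehicle libraries. Its DMαKG values were 114, 96.5 and 15.3 CPM in the 3 WT libraries and 67.4, 190.0 and 182 CPM in the 3 cKO libraries, and its log2 difference was 1.80 in cKO (SE 0.74, edgeR adjusted p = 0.259) and 1.40 averaged over genotype (SE 0.52, edgeR adjusted p = 0.251).

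**Figure D4:**
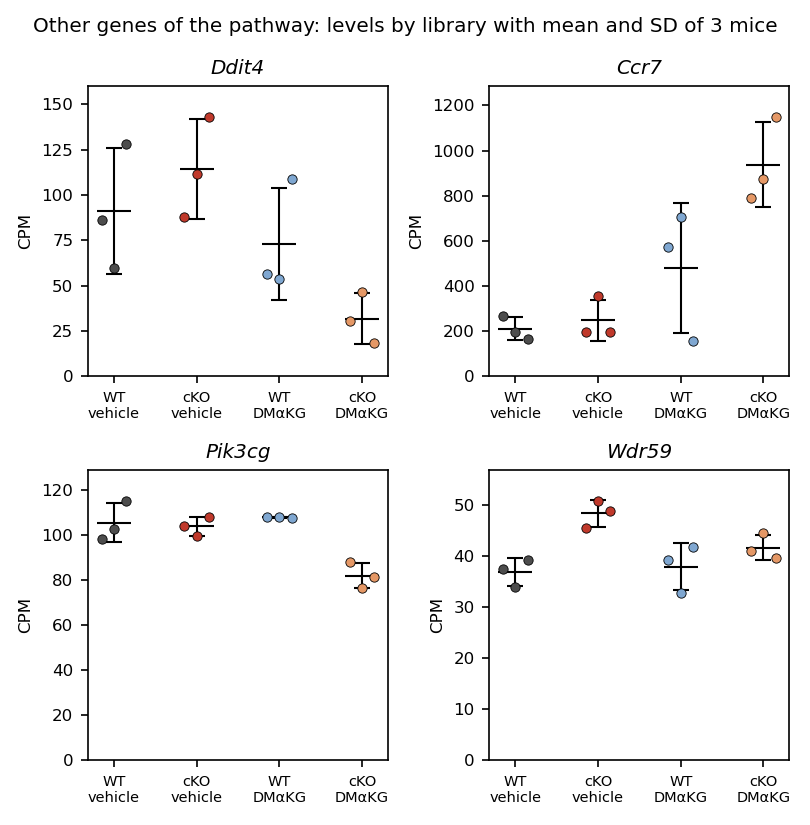
CPM of Ddit4, Ccr7, Pik3cg and Wdr59 in each library (points), with the mean and SD of 3 libraries per group (lines and bars). The word mice in the figure's title stands for libraries, as in the figure before. Ddit4 is lowest and Ccr7 highest in the 3 cKO DMαKG libraries, Pik3cg is lowest in the same 3, and Wdr59 is highest in the 3 cKO vehicle libraries.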

How the data were processed

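RNA from sorted Tregs was measured in 12 libraries, 4 groups of 3 libraries taken from the sample labels. Trizol was used for extraction and an Illumina instrument for sequencing, per the labels' protocols. Of tools, HISAT2 2.0.5, DESeq2 1.16.1 and featureCounts 1.5.0-p3 are listed with the build mm10, without order or role, per the submitters' processing notes. The authors deposited 1 table of 17955 genes with estimated counts, TPM and FPKM per library. Estimated counts as the authors deposited them carry no normalization. Fractional values made up 36.0% of them, so they were rounded, although the tests had been planned for whole counts. The authors' TPM values, scaled by length and library, were used only to compare levels and sum markers, and the deposited FPKM values were not used.

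Summed counts per library, 15706791 to 18878525, set the precision, a standard error of 0.18 (median over genes, log2 scale). The 12903 genes that passed filterByExpr were scaled by TMM and fitted in edgeR 4.0.16 (R 4.3.3) by a robust quasi-likelihood model with 1 mean per group and 8 residual degrees of freedom. Contrasts were the 4 pairwise comparisons, the interaction and both factors averaged over the other, with Benjamini-Hochberg adjustment over all genes tested and a threshold of 0.05. The script was tested on simulated counts. Libraries of 1 group differed by more than counting noise (chi-square per degree of freedom 10.2 to 89.6). Coordinates and promoters are those of RefSeq for GRCm38.p6, and 17901 gene IDs matched.

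The members and lists were chosen with earlier results of these data known. Values in every library are given for members past the threshold, otherwise for up to 3 members per direction with the smallest unadjusted p, given a group mean of 5 CPM or more, and for the 2 further pathway genes with the smallest p in each comparison. Other members were described as ranges or where a library stood apart, chosen after their values were seen. The alternatives were DESeq2 size factors, no low-count filter, DESeq2 1.42.0 with its Wald test, limma 3.58.1 voom with sample quality weights, the replicate number as a block, and leaving out each library. Added after seeing the data were edgeR without robust shrinkage, a Y-linked covariate, and leaving out the 3 libraries together at one end of the first principal component.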

Additional observations from a re-analysis of the deposited data

How the results depend on the processing

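In the order cKO against WT with vehicle, cKO against WT with DMαKG, DMαKG in WT, DMαKG in cKO, interaction, genotype averaged and DMαKG averaged, 8, 24, 0, 0, 0, 130 and 1 genes were called. The DESeq2 Wald test called 100, 143, 2, 385, 1, 398 and 344 genes, and voom called 245, 237, 8, 450, 1, 1038 and 1546. DESeq2 size factors gave 3 with vehicle, and no low-count filter gave 4 for DMαKG in cKO and 2 for DMαKG averaged. Without robust shrinkage the genotype counts were 3 with vehicle and 9 with DMαKG, and with the Y-linked covariate 3 and 4. Without the 3 libraries at the end of the first component the counts were 3, 1, 15 for DMαKG in cKO, 68 for genotype averaged and 163 for DMαKG averaged. Leaving out 1 library gave 1 to 5, 1 to 33, 0 to 0, 0 to 137, 0 to 0, 52 to 164 and 0 to 619 genes, with 137 and 619 both without WT DMαKG replicate 3.

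Members called went from 0 to 1 with vehicle under the Wald test and voom (Rragd in both), from 0 to 1 with DMαKG under voom (Pik3r5), and from 0 to 1 for DMαKG in cKO under the Wald test (Fnip1) and 0 to 1 over the left-out libraries (Fnip1, without WT DMαKG replicate 3). For genotype averaged the 1 member became 2 under the Wald test and voom (Pik3r5 and Rragd), 0 with no filter, the block, the Y-linked covariate or without the 3 libraries, and 0 to 1 over the left-out libraries. For DMαKG averaged the 0 members became 1 under the Wald test (Fnip1), 6 under voom (Fnip1, Mlst8, Pik3r5, Prkaa1, Rps6kb1 and Rragd), 1 without the 3 libraries (Fnip1) and 0 to 1 over the left-out libraries. The cause was not tested. The log2 fold change of each member named by the rule kept its sign in 20 of 20 alternatives.

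Leaving out 1 library moved 23 of 56 fold changes of genes named by the rule by over 1.5 times and changed the sign of 0. Beside those given with the genes, cKO against WT with vehicle became 0.10 for Nprl3 and -0.10 for Inpp4b without cKO vehicle replicate 2, and with DMαKG it became -0.14 for Prkaa1 without WT DMαKG replicate 3 and 0.10 for Ulk1 without cKO DMαKG replicate 2. DMαKG in WT became 0.15 for Mios without WT DMαKG replicate 1, -0.17 for Mlst8 without WT vehicle replicate 4, and -0.11 and -0.34 for Rps6kb1 without WT DMαKG replicates 2 and 3. The Rragd interaction became -0.19 without cKO vehicle replicate 2. The Rictor interaction, 0.32 in the main fit, became 0.16 without WT DMαKG replicate 3 and 0.21 without cKO DMαKG replicate 3. Inpp4b in cKO against WT averaged over treatment became -0.11 without cKO DMαKG replicate 2. Without WT DMαKG replicates 2 and 3 in turn, DMαKG in WT became 0.31 and 0.73 for Fnip1 and 0.10 and 0.28 for Nprl3.

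Of the further pathway genes named by the rule, 6 passed an adjusted p of 0.05 under an alternative. For DMαKG averaged over genotype, Ccr7 passed under the Wald test (adjusted p = 0.00443), under voom (0.0108), without WT DMαKG replicate 3 (0.00443) and without the 3 libraries (0.015). Ddit4 passed there under the Wald test (adjusted p = 0.00533), under voom (0.0108) and without WT DMαKG replicate 3 (0.0299). For DMαKG in cKO, Ccr7 had adjusted p-values of 0.0138, 0.0456 and 0.0301 in those 3 alternatives, and Ddit4 of 0.000353, 0.0253 and 0.0473. Over all 20 alternatives the adjusted p of both genes reached 0.909 in cKO and 0.675 averaged over genotype. The log2 difference in cKO ran from 1.505 to 2.284 for Ccr7 and from -2.21 to -1.275 for Ddit4. With the Y-linked covariate, the smallest edgeR adjusted p of any member for DMαKG in cKO was 0.909. For cKO against WT with DMαKG, Pik3cg passed under the Wald test (adjusted p = 0.00801) and voom (0.0484), and Pik3r3 under voom (0.0249). Over all alternatives their adjusted p reached 0.467 for Pik3cg and 0.711 for Pik3r3. Under voom, Wdr59 (adjusted p = 0.0327) and Wdr24 (0.0419) also passed with vehicle, and Pik3r3 (0.0109) and Wdr59 (0.0218) averaged over treatment.

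The main fit did not use the replicate numbers as pairs. Of 14 same-numbered pairs of libraries, 4 correlated above 0.1 (range -0.28 to 0.47), and replicate 4 of both vehicle groups correlated most. These values cannot decide on pairing, because equal numbers in vehicle and DMαKG groups need not belong together. With the replicate block the counts were 1, 0, 12 for genotype averaged and 0 for DMαKG averaged, and Rragd kept a log2 fold change of 0.41 (edgeR adjusted p = 0.152).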
